A study of Mus musculus with 2 samples.

Results

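Cathepsins are the main proteases of the endosomes and lysosomes. They are made as inactive precursors, are carried to acidic compartments largely through the mannose 6-phosphate pathway, and are classed by the residue that cuts the peptide bond as cysteine, aspartic or serine proteases. In macrophages they degrade engulfed material, trim antigens and the invariant chain for MHC class II presentation, and can be released to act on matrix outside the cell. The genes examined here are 10 cathepsins (Ctsa, Ctsb, Ctsc, Ctsd, Ctse, Ctsh, Ctsk, Ctsl, Ctss and Ctsz), chosen by name as a family and found through their NCBI gene numbers among 15623 genes listed in 1 or both libraries. All 10 were listed in both libraries and all 10 had enough reads to be tested.

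Transcripts were sequenced from peritoneal macrophages of wild-type C57BL/6 mice aged 6 to 8 weeks, collected 4 to 5 days after injection of thioglycollate, an irritant that draws macrophages into the peritoneal cavity. The cells were purified by adherence, starved in low serum and then left nontreated (NT) or given IL-4, a Th2 cytokine that turns macrophages toward the alternative (M2) state, for 6 h. Each group held 1 library, and whether its RNA came from 1 animal or from several is not given in the sources used here. No difference below could therefore be set against the spread between animals, and each test compares the reads of 2 libraries and not the conditions.

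The NT library held 11035641 expected counts (estimated reads per gene, which need not be whole) and the IL-4 library held 11250099. In the labels the cells are peritoneal macrophages but the tissue entry reads bone marrow, and the first was used. All 8 macrophage markers examined were listed in both libraries, with summed levels of 17095 CPM (counts divided by the library total and put on 1 scale) in NT and 17408 CPM in IL-4. Most of this sum was Lyz2, with 129463 counts in NT and 126458 in IL-4. Single markers differed in both directions, with Csf1r at 6236 counts in NT and 11896 in IL-4 and Cd14 at 1219 and 591. The markers of B cells, T and NK cells, neutrophils, mast cells, eosinophils and dendritic cells each summed to at most 9.61 CPM in either library. Of these, S100a9, Ly6g, Mpo, Camp, Ngp, Fcer1a, Epx and Ear1 were at 0 in both libraries. Mesothelial and fibroblast markers summed to 152 CPM in NT and 131 CPM in IL-4, with all 6 listed. In bulk RNA, fewer cells of a type and less RNA per cell cannot be told apart.

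The cathepsins as a group were among the most abundant transcripts in both libraries, and their combined level was almost equal in NT and IL-4. Together the 10 genes took 678020 counts, or 6.14% of the NT library (exact 95% binomial interval from 6.13% to 6.16%), and 686735 counts, or 6.10% of the IL-4 library (6.09% to 6.12%). On the log2 scale the summed counts differed by -0.0093 (IL-4 over NT), and its sign depended on the scaling, with 0.027 under TMM. Intervals here cover counting error only, and since reads copied by PCR without molecular identifiers are not independent molecules they may be too narrow. What differed between the libraries was the make-up of the group. Ctsl rose, Ctsz and Ctsc had higher values in IL-4, and Ctsk, Ctsh and Ctsd had lower values in IL-4.

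Levels were compared between genes in FPKM, which corrects for transcript length and library size. Ctsd, the aspartic endopeptidase that does much of the bulk protein breakdown in lysosomes, had 11712 FPKM in NT and 10349 FPKM in IL-4. These values placed it at rank 3 among all listed genes in NT and rank 4 in IL-4. Ctss, a cysteine endopeptidase that cuts the invariant chain in antigen-presenting cells and stays active near neutral pH, had 5862 FPKM in NT and 6357 FPKM in IL-4, at ranks 7 and 8. Ctsb, a cysteine protease that acts both as an endopeptidase and by removing dipeptides from the C-terminal end, had 4434 FPKM in NT and 4252 FPKM in IL-4, at rank 12 in both. These 3 genes held 84.6% of the summed FPKM of the 10 cathepsins in NT and 81.1% in IL-4.

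A second tier was still highly expressed. Ctsz, a cysteine carboxypeptidase also called cathepsin X, had 1893 FPKM in NT and 2355 FPKM in IL-4, at ranks 20 and 17. Ctsa, the serine carboxypeptidase that protects beta-galactosidase and neuraminidase from breakdown, had 908 FPKM in NT and 899 FPKM in IL-4, at ranks 55 and 63. Ctsl, a cysteine endopeptidase with broad activity on lysosomal cargo, had 654 FPKM in NT and 1227 FPKM in IL-4, and moved from rank 92 to rank 37. Thus 6 of the 10 genes were among the 100 most abundant listed genes in each library, whether genes were ranked by FPKM or by expected count.

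The other genes of the family were less abundant. Ctsk, the collagen-degrading cysteine protease best known from osteoclasts, had 309 FPKM in NT and 201 FPKM in IL-4, at ranks 206 and 366. Ctsh, a cysteine protease that mainly removes single residues from the N-terminal end, had 217 FPKM in NT and 167 FPKM in IL-4, at ranks 307 and 441. Ctsc, the dipeptidyl peptidase that activates the serine proteases of immune cell granules, was far below these, with 22.6 FPKM in NT and 31.4 FPKM in IL-4, at ranks 2925 and 2274. Ctse, an aspartic protease of endosomes, was the lowest member, with 28 counts (1.20 FPKM, rank 10267) in NT and 31 counts (1.30 FPKM, rank 10000) in IL-4.

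**Figure D1:**
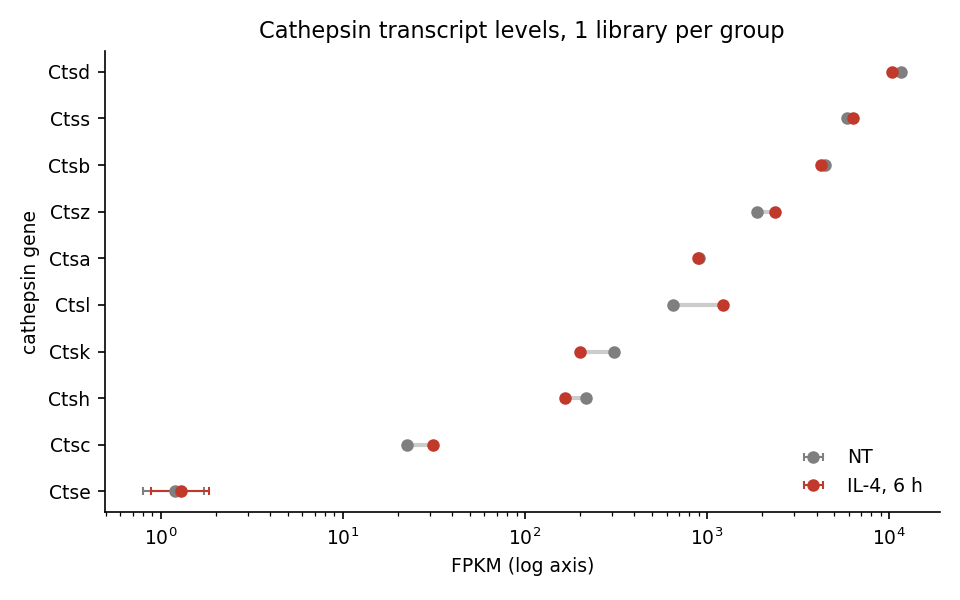
Level of each cathepsin transcript in FPKM (log axis) in the NT library (grey) and the IL-4 library (red), with bars for the 95% counting interval, which is narrower than the point for all genes but Ctse. Ctsd, Ctss and Ctsb lead in both libraries, Ctsl crosses Ctsa from 654 to 1227 FPKM on the deposited lengths, and Ctsc and Ctse lie far below the rest.

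From highest to lowest, the order in NT was Ctsd, Ctss, Ctsb, Ctsz, Ctsa, Ctsl, Ctsk, Ctsh, Ctsc and Ctse. The order in IL-4 was the same except that Ctsl stood above Ctsa. No neighbours in either order had counting intervals that overlapped, and the closest pair was Ctsk and Ctsh in IL-4, at a ratio of 1.21. However, the exchange between Ctsl and Ctsa rested on the transcript lengths behind the FPKM values. For Ctsl the deposited length was 3509 bases, whereas the RefSeq-paired transcript in GENCODE M21 has 1971 bases. With the longest paired GENCODE transcript of each gene as the length, a check chosen after seeing the data, Ctsl had 1165 FPKM in NT against 824 FPKM for Ctsa and stood above it in both libraries. For Ctsc the deposited length was 7271 bases against 3220 bases, and with the latter it reached 51.1 FPKM in NT and 70.9 FPKM in IL-4 without changing its place. The 8 remaining genes had deposited lengths between 0.908 and 1.05 times those in GENCODE. A ratio of the libraries for 1 gene does not depend on the length used.

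Ctsl was the only cathepsin whose transcript passed the limits the study set for these libraries. They ask for a log2 ratio of 0.75 or more in either direction, with p no higher than 0.05 and a Benjamini-Hochberg (BH) adjusted p no higher than 0.5. Ctsl (gene 13039, chromosome 13, 64361890 to 64370772, GRCm38) had 25528 expected counts in NT and 48849 in IL-4, or 2313 CPM and 4342 CPM. The log2 ratio of 0.91 (95% interval 0.89 to 0.93) is a 1.88-fold higher level in the IL-4 library. Of the 10 cathepsins, 1 was therefore called higher and 0 lower. Across the 15593 genes tested, 10.4% were called in either direction, 4.07% higher and 6.28% lower, so a single call among 10 genes is near the background. Among the 3998 genes with at least 1000 reads in all, a depth that 9 of the 10 cathepsins reached, the share called was 9.45%, with 4.05% higher and 5.40% lower. The call of Ctsl was made with counting error alone and was lost when a biological coefficient of variation of 0.2 or 0.4 was assumed between the libraries.

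The methods of the study also give other limits, more than a 1.5-fold change and a BH-adjusted p of 0.05 or less. At these, 2 cathepsins passed, Ctsl higher and Ctsk lower, where 12.6% of all tested genes passed, 4.84% higher and 7.74% lower. Ctsk (gene 13038, chromosome 3, 95499210 to 95509387) had 5372 counts in NT and 3570 in IL-4, a log2 ratio of -0.62 (-0.68 to -0.56). Its level in NT was 1.53 times that in IL-4, and the interval included the 1.5-fold limit. With TMM scaling the log2 ratio of Ctsk was -0.58, just short of that limit. Ctsk is also made by fibroblasts, and the 6 mesothelial and fibroblast markers summed to 152 CPM in NT and 131 CPM in IL-4. Their part in the result was not tested. Ctss, its neighbour on chromosome 3 (95526786 to 95556405), had 87001 counts in NT and 96242 in IL-4, a log2 ratio of 0.12 (0.10 to 0.13). These adjacent genes thus had ratios of opposite sign as counted, although that of Ctss turned to -0.066 when the trend of all genes with transcript length was subtracted.

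The balance between members does not depend on how the libraries were scaled. Of 7 pairs of cathepsins computed, Ctsl against Ctsk differed most between the libraries. This follows by construction, since Ctsl had the highest and Ctsk the lowest log2 ratio of the family. On the deposited lengths, Ctsl had 2.12 times the FPKM of Ctsk in NT and 6.09 times in IL-4, a 2.88-fold difference, with a log2 value of 1.53 and a 95% interval from 1.46 to 1.59 (a normal approximation on the 4 counts). Against Ctsb, whose own log2 ratio was -0.06, Ctsl differed by 0.97 on the log2 scale (0.94 to 0.99) and Ctsz by 0.38 (0.35 to 0.40).

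**Figure D2:**
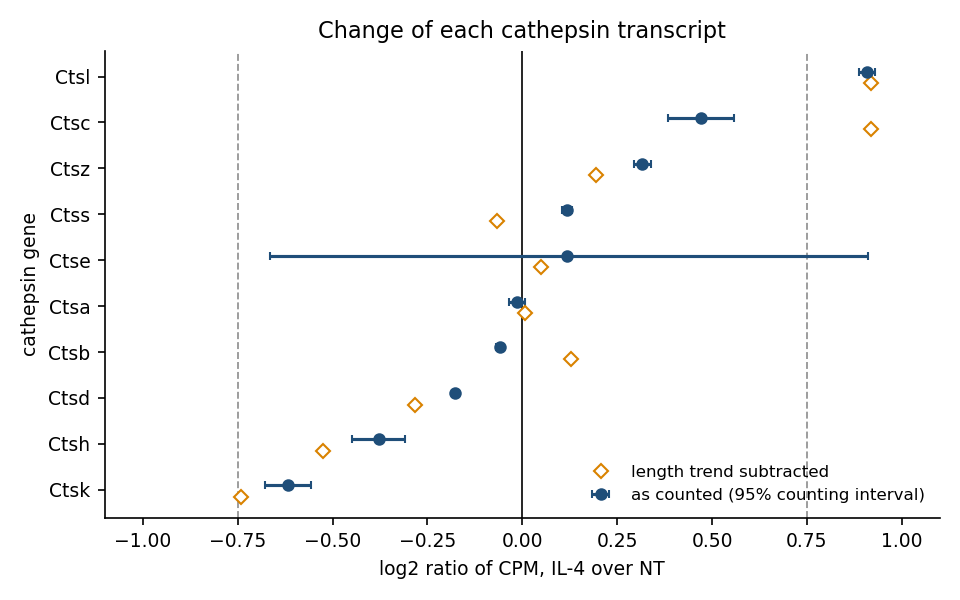
Log2 ratio of CPM, IL-4 over NT, for each cathepsin as counted (filled circles with 95% counting intervals) and with the trend of genes of similar length subtracted (open diamonds). Dashed lines mark 0.75 in size. Only Ctsl, at 0.91, lies past the line as counted, and Ctsc moves from 0.47 to 0.92 when the trend at its deposited length is subtracted.

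The remaining cysteine cathepsins were not called. Ctsz (gene 64138, chromosome 2, 174427494 to 174439039) had 30149 counts in NT and 38262 in IL-4, a log2 ratio of 0.32 (0.29 to 0.34). Ctsc (gene 13032, chromosome 7, 88278024 to 88315861) had 1841 counts in NT and 2601 in IL-4, a log2 ratio of 0.47 (0.38 to 0.56). Ctsh (gene 13036, chromosome 9, 90054267 to 90076095) had 3878 counts in NT and 3041 in IL-4, a log2 ratio of -0.38 (-0.45 to -0.31). For these 3 genes the counting interval excluded 0 but lay wholly inside the threshold. Ctsb (gene 13030, chromosome 14, 63122462 to 63145923) had 235169 counts in NT and 230009 in IL-4, a log2 ratio of -0.06 (-0.07 to -0.05). At such depth a difference of a few percent stands outside counting error, which says nothing about the spread between animals.

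Both aspartic cathepsins and the serine cathepsin were likewise not called. Ctsd (gene 13033, chromosome 7, 142375910 to 142387827) had 255661 counts in NT and 230421 in IL-4, a log2 ratio of -0.18 (-0.19 to -0.17). Ctsa (gene 19025, chromosome 2, 164832872 to 164841032) had 33393 counts in NT and 33709 in IL-4, and its log2 ratio of -0.014 had an interval from -0.036 to 0.0077 that included 0 (exact test p = 0.204, BH-adjusted 0.406). The sign of Ctsa turned with TMM scaling, to 0.023, so no direction can be given for it. Ctse (gene 13034, chromosome 1, 131638314 to 131675507) had a log2 ratio of 0.12 (-0.67 to 0.91). This interval includes 0 and reaches past the threshold on the higher side only.

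By catalytic class, the 7 cysteine cathepsins summed to 3.52% of the NT library and 3.76% of the IL-4 library, a log2 ratio of 0.09. The 2 aspartic cathepsins, of which Ctsd is nearly all, summed to 2.32% and 2.05%, a log2 ratio of -0.18. In summed FPKM, the cysteine class held 51.5% of the cathepsin transcripts in NT and 56.5% in IL-4, while the aspartic class held 45.0% and 40.1%. The share of Ctsl was 2.51% in NT and 4.75% in IL-4, shares that would be larger with its GENCODE length. Without Ctsl, the log2 ratio of the summed counts of the other 9 genes was -0.06.

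**Figure D3:**
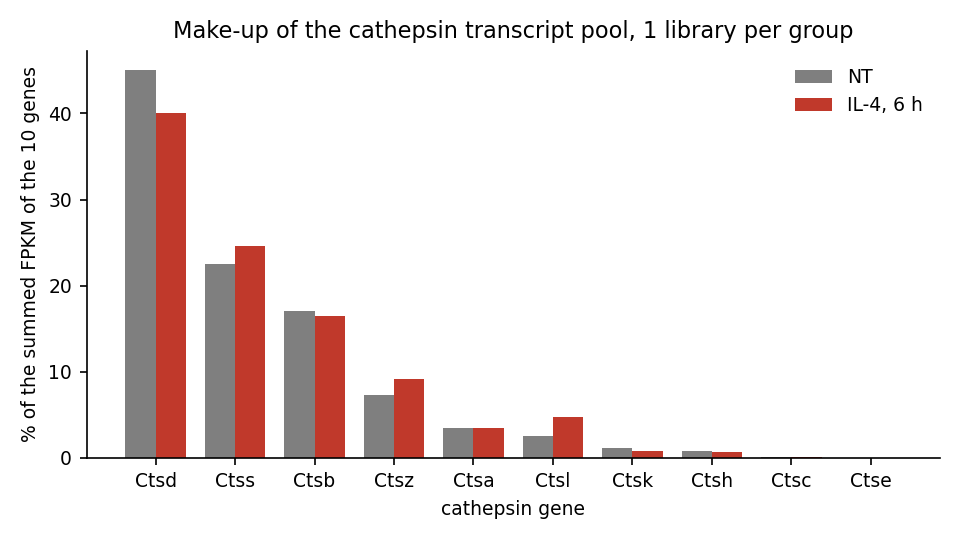
Share of each gene, in percent, of the summed FPKM of the 10 cathepsins in the NT library (grey) and the IL-4 library (red). The share of Ctsd is 45.0% in NT and 40.1% in IL-4, those of Ctss, Ctsz and Ctsl are higher in IL-4, and the smallest members are barely visible on this linear axis.

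The median log2 ratio of the 10 cathepsins was 0.05, against -0.03 for all tested genes, and 5 genes had ratios over 0 and 5 under 0. Across all genes of these libraries the ratio falls with transcript length, so each ratio was also read against the median of the 200 genes nearest in length. Read in this way, Ctsl had a ratio of 0.92 and Ctsk a ratio of -0.74, just inside the threshold. The ratio of Ctsc became 0.92 and passed the threshold, but this followed from its deposited length of 7271 bases, and with the GENCODE length it was 0.50. For Ctsl the GENCODE length gave 0.79, still past the threshold. The small ratios of Ctsa, Ctsb and Ctss changed sign with this subtraction.

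How far reads could be shared with other genes was checked for each cathepsin. No 31-base word of the paired transcripts of Ctse, Ctsk, Ctsl, Ctss or Ctsz occurred in a GENCODE transcript of another gene, and the share was at most 2.14% for Ctsa, Ctsb, Ctsc and Ctsh. However, the longest paired transcripts of Ctsl and Ctsc, at 1971 and 3220 bases, are far shorter than the deposited lengths of 3509 and 7271. Part of the sequence behind the counts of Ctsl and Ctsc may therefore not have been checked. Ctsd shared 37.1% of its words, all with Gm49369. Whether reads of Ctsd were divided with that gene was not tested. Expected counts were not whole for Ctsa, Ctsc and Ctsl, so some of their reads had been divided with other genes or transcripts. Ctsl had 1 listed transcript, so its reads had not been divided within the gene. In the RefSeq annotation, Ctsa overlaps Neurl2 and Pltp, Ctsb overlaps Fdft1, Ctsz overlaps Nelfcd and Ctss contains the pseudogene Hmgb1-ps5. Whether the counting used strand is not given in the sources used here, so reads in these overlaps are uncertain. The largest count of an overlapping gene was 3726 for Pltp in NT, against 33393 for Ctsa.

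Many lysosomal genes carry CACGTG, the core of the element bound by TFEB and its relatives, near their start sites. RefSeq promoter windows (GRCm38.p6, from 250 bases before to 50 bases after a start site) were matched for 7 of the 10 cathepsins, in 8 windows, and not for Ctsb, Ctse and Ctsh. The motif CACGTG, which reads the same on both strands, was in 3 of the 8 windows, those of Ctsa, Ctsd and Ctsl, and in 7.15% of all 32851 windows. The longer form TCACGTGA, which contains it, was in the windows of Ctsa and Ctsd and in 0.974% of all windows. The following stretches show CACGTG in capitals, 5′ to 3′ on the strand of the gene, because Ctsd is the most abundant cathepsin, Ctsl is the one called, and Ctsa holds a pair of matches around its start site.
Ctsa (chr2:164833758-164833787, plus strand): tgtCACGTGatgcagatgctCACGTGacca
Ctsd, distal (chr7:142388048-142388077, minus strand): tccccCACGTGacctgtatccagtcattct
Ctsd, proximal (chr7:142387908-142387937, minus strand): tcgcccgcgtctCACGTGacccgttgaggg
Ctsl (chr13:64370739-64370768, minus strand): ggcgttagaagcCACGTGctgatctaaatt

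Ctsa has 2 windows, and the stretch spans the start site of the downstream window, with matches beginning at -12 and 5. Counted from the start site of the window as position 0, the matches of Ctsd begin at -245 and -98 and that of Ctsl at -236. By the gene spans given above, the stretches of Ctsa and Ctsl lie inside the annotated gene and those of Ctsd upstream of it. The start site of the Ctsl window is thus internal, and its position -236 is not upstream of the gene. The Ctsl match lies just inside the 5′ end of the annotated gene, at 64370772. The palindrome TTC and GAA spaced by 4 bases, the form preferred by Stat6, the factor activated by IL-4, was in 0 of the 8 windows and in 6.95% of all windows. The same palindrome spaced by 3 bases, the form of other Stat factors, was in the window of Ctsc alone and in 8.30% of all windows. A match is a description of letters, not a bound site, and the absence of one concerns only these windows.

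The factors that bind the CACGTG element were examined as a companion list together with Mcoln1, a lysosomal calcium channel. Of these 5 genes, 1 was called higher and 0 lower, where 4.07% and 6.28% of all tested genes were called. Their median log2 ratio was 0.43. Tfec, a member of the family found mainly in macrophages, had 135 counts in NT and 409 in IL-4, a log2 ratio of 1.57 (1.29 to 1.86). Tfe3 had 49.4 FPKM in NT and 46.9 FPKM in IL-4. Mcoln1 had 61.2 FPKM and 55.9 FPKM, and neither of the last 2 was called. Tfeb itself was not called, at a log2 ratio of 0.43. Mitf, at 0.51 (0.39 to 0.63), was not called either.

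Natural inhibitors of cathepsins were next considered. Of 12 genes in this list, 8 were listed, 2 were called higher and 0 lower, and the median log2 ratio was 0.18. Across all tested genes, 4.07% were called higher and 6.28% lower. Cst3, which encodes the secreted inhibitor cystatin C, had 7365 counts in NT and 9330 in IL-4 (844 and 1048 FPKM), a log2 ratio of 0.31 that was not called. Cstb, the cytosolic cystatin B, had 1057 FPKM in NT and 1085 FPKM in IL-4 and was not called. Serpina3g, a serpin that can inhibit cysteine cathepsins, rose from 18.51 to 296.85 counts, for a log2 ratio of 3.94 (3.27 to 4.69). Its counts were not whole and it belongs to a cluster of close copies, so its separate value is uncertain. Cst7, cystatin F, an inhibitor of Ctsc, rose from 2 to 14 counts, for a log2 ratio of 2.51 (0.66 to 5.96). The interval of Cst7 included the threshold.

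Genes that sort and mature cathepsins were examined in the same way. Of 14 genes, 0 were called higher and 1 lower, where 4.07% and 6.28% of all tested genes were called, and the median log2 ratio was -0.10. Lgmn, the asparaginyl endopeptidase legumain, which cleaves Ctsb, Ctsh and Ctsl to their processed forms, had 14918 counts in NT and 25467 in IL-4 (722 and 1209 FPKM). Its log2 ratio of 0.74 (0.71 to 0.77) lay just inside the threshold and passed it with the other scalings TMM and median-of-ratios. It did not pass without the 100 most abundant genes, and was 0.60 with the length trend subtracted. M6pr, the small mannose 6-phosphate receptor, had 158 FPKM in NT and 163 FPKM in IL-4 and was not called. Igf2r, the large one, had 6941 counts in NT and 5106 in IL-4 and was not called. The log2 ratio of Igf2r was -0.47 as counted and -0.04 with the length trend subtracted. Sorl1, a sorting receptor, fell from 508 to 224 counts, for a log2 ratio of -1.21 (-1.44 to -0.98), and its relative Sort1 was not called, at a log2 ratio of -0.72. With the length trend subtracted, Sorl1 was at -0.82 and Sort1 at -0.37.

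The final list held partners and substrates. Of 11 genes, 8 were listed, 1 was called higher and 0 lower, where 4.07% and 6.28% of all tested genes were called. The median log2 ratio of the list was -0.09. Psap, the precursor of the saposins and a substrate of Ctsd, had 9230 FPKM in NT and 8640 FPKM in IL-4, at rank 5 in both, and was not called. Grn, the progranulin precursor cut by lysosomal cathepsins, had 1130 FPKM in NT and 933 FPKM in IL-4 and was not called. Ifi30, a lysosomal thiol reductase that unfolds antigens for cathepsins, rose from 4498 to 7760 counts, for a log2 ratio of 0.76 (0.71 to 0.81), whose interval included the threshold. With the length trend subtracted, the ratio of Ifi30 was 0.56. The partners of Ctsa, Glb1 (beta-galactosidase) and Neu1 (neuraminidase), had log2 ratios of 0.10 and -0.09 and were not called. The granule proteases that Ctsc activates were at or near 0, with 1 count each of Elane and Prtn3 in NT, none in IL-4, and Gzma, Gzmb and Gzmk in neither table.

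**Figure D4:**
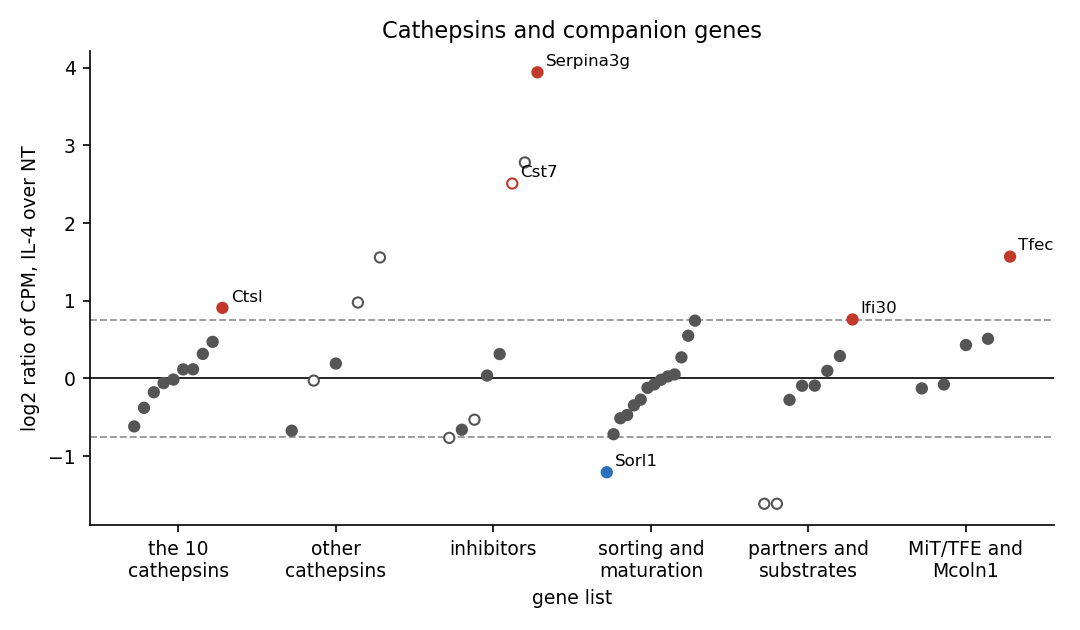
Log2 ratio of CPM, IL-4 over NT, for the 10 cathepsins and 5 companion lists, 1 point per tested gene, with open points for genes under 50 counts in all, red for called higher and blue for called lower. Dashed lines mark 0.75 in size. Called genes are named, and Serpina3g, at 3.94, lies highest.

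Of 13 other mouse cathepsin genes, 5 were listed and none was called, where 10.4% of all tested genes were called in either direction. Ctso, a cysteine cathepsin found in many tissues, had 839 counts in NT and 977 in IL-4, at 21.8 and 24.8 FPKM, a level similar to that of Ctsc on the deposited lengths. Ctsf had 55 counts in NT and 35 in IL-4. Ctsg, a neutrophil serine protease, had 1 count in IL-4 and was not listed in NT, and Ctsw, which is made by cytotoxic lymphocytes, had 2 counts in each library. Cts8, one of a cluster of placental genes on chromosome 13, had 9.95 and 20.47 counts, with an interval of the log2 ratio from -0.19 to 2.23. The other 8 genes, Ctsj, Ctsm, Ctsq, Ctsr, Cts3, Cts6, Cts7 and Ctsll3, were in neither table. With 2 libraries there is 1 difference per gene, so the likeness of other genes to the pattern of a cathepsin was not scored.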

How the data were processed

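RNA from 1 NT and 1 IL-4 library was sequenced by BGI (Illumina HiSeq). As stated in the methods of the study, Bowtie was used for mapping (GRCm38/mm10) and RSEM for gene levels, with versions not given in the sources used here. The deposited expected counts are RSEM estimates, not scaled for depth, and the deposited FPKM values are scaled for length and assigned fragments. The deposited gene length served for checks only. A gene absent from a table was set to 0, and 3 counts amount to 0.272 CPM in NT and 0.267 CPM in IL-4. Symbols came from a RefSeq table for GRCm38 (15587 of 15623 matched).

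Groups were taken from the sample titles. Log2 ratios used counts scaled to library totals with 0.5 count added. Counts were rounded for an exact two-sided binomial test of each of 15593 genes (smaller tail doubled) with BH adjustment over all of them. Intervals are Clopper-Pearson. The procedure was tested on simulated data that held counting error only. That test therefore says nothing about variation between animals. The 10 genes, the companion lists and the length check were chosen with earlier results of these data known. Of each list, called genes and the 2 of highest mean FPKM are named. Glb1, Neu1, Elane, Prtn3, Tfeb, Mitf, Igf2r, Sort1, Ctsg, Ctsw and Cts8 were added after their values were seen. Alternatives used edgeR 4.0.16, DESeq2 1.42.0, FPKM with 0.1 or 1 added, assumed variation, other thresholds, a filter of 10 reads and a length trend. Python 3.11.15, scipy 1.17.1 and R 4.3.3 were used.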

Additional observations from a re-analysis of the deposited data

How the results depend on the processing

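No paired analysis was possible because NT and IL-4 have a single library each, and no library was left out. With 1 library per group the variation between animals is unknown, and depth limits Ctse, Cst7 and the other genes of few counts. Of 150 comparisons of a cathepsin with an alternative, 140 kept their direction and side of the threshold.

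Ctsl had log2 ratios from 0.88 to 0.97 over the alternatives. At its value of 0.91 it was not called under a limit of 1 on the log2 ratio or when the biological coefficient of variation was set to 0.2 or 0.4, which left 0 cathepsins called. Subtracting the length trend called 2 higher, with Ctsc at 0.92, and turned Ctsa to 0.0076, Ctsb to 0.13 and Ctss to -0.066. Ctsa also turned to 0.023 with TMM and 0.014 with median-of-ratios scaling. A fold change over 1.5 called 1 cathepsin lower, Ctsk at -0.62, with an interval that included this limit. The log2 ratio of the summed cathepsin counts was 0.027 with TMM, 0.018 with median-of-ratios and -0.029 without the 100 most abundant genes. Scaling to the macrophage markers or to the other 9 cathepsins, chosen after seeing the data, changed no call.

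Among the companion lists, 115 of 130 comparisons kept their count, and a count of 0 could not fall under a stricter setting. Sorting genes called higher were 1 with TMM, median-of-ratios or a fold change over 1.5 (Lgmn), and those called lower were 2 with the latter and 0 with a coefficient of 0.4. Partners called higher were 0 without the 100 most abundant genes, with the length trend, with a coefficient of 0.2 or 0.4 and with the limit of 1. Inhibitors called higher were 1 with a coefficient of 0.4, and those called lower were 1 with the length trend or a fold change over 1.5. Other cathepsins called lower were 1 with the length trend, and MiT/TFE genes called higher were 0 with a coefficient of 0.4. The cause of these changes was not tested beyond what each setting does by construction.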
